A study of Mus musculus with 6 samples.

Results

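The 9 genes described here, Mbp, Mog, Mag, Mobp, Cnp, Mal, Cldn11, Opalin and Ermn, encode core proteins of central nervous system myelin. They were taken by name from a table of 24841 genes, in which all 9 were listed, and their values were read in every nucleus. The nuclei came from frozen dissected mouse striatum, in 3 wild-type libraries and 3 libraries heterozygous for Celsr3, which encodes an adhesion receptor of the cadherin superfamily. Each library is labelled as 1 biological replicate, and values below follow the order of replicates 1, 2 and 3. Both groups were untreated as far as the labels say, and age, sex, strain and the Celsr3 allele are not given in the sources used here. The question put by the design was whether loss of 1 Celsr3 copy changed expression in the striatum.

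Myelin is the multilayered membrane that oligodendrocytes wrap around axons. Oligodendrocytes arise from proliferating precursors, the OPCs, which pass through a committed, premyelinating stage before they mature and make myelin. Sox10 and Myrf are transcription factors known to drive myelin genes along this path. Within the sheath, Mbp and Mobp are basic proteins of compact myelin, and Mbp holds the cytoplasmic membrane faces together. Mal is a proteolipid of membrane traffic and Cldn11 forms the tight junctions between myelin layers. Mag is an adhesion molecule of the axon-facing membrane, Mog an immunoglobulin-family protein of the outermost surface, and Opalin a transmembrane glycoprotein of oligodendrocytes. Cnp is a phosphodiesterase of the non-compact cytoplasmic channels and Ermn, ermin, binds the actin cytoskeleton.

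A value here is a number of UMIs that, judged from the table itself, had been corrected for depth and rounded, so the original depth of a nucleus is unknown. Of 48834 nuclei, 48016 were kept, 7610 to 8709 per library, with medians of 2435 to 3004 genes per nucleus. Of the barcodes, 274 occurred in 2 or more libraries. Clusters were made and named without any of the 9 genes. The kept nuclei held 966 OPC-like, 404 committed OPC-like and 8370 mature oligodendrocyte-like nuclei and 38276 outside this lineage. The names came from marker lists, so the levels of listed markers describe the classes and do not test the names. As examples, Pdgfra averaged 3.99 in OPC-like nuclei against 0.0302 in mature ones, and Bmp4 1.05 in committed nuclei against 0.0576 in OPC-like ones. Aspa averaged 5.44 in mature nuclei against 0.106 in committed ones. Not every listed marker was highest in its own class. Of the mature list, Pllp averaged 0.7681 in committed and 0.7196 in mature nuclei, and Gal3st1 0.8768 and 0.8077. Celsr3 itself averaged 0.0748, 0.1001 and 0.108 per nucleus in the wild type, against 0.0614, 0.0695 and 0.0648 in heterozygotes, with no overlap between the groups. Of 14400 genes tested over all nuclei, 4.41% were lower in heterozygous libraries without overlap, and 0 passed the limma test described below. In mature nuclei Celsr3 was low and the groups overlapped, at 0.00533, 0.00755 and 0.016 against 0.00857, 0.0075 and 0.00785.

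The members did not appear together along the lineage. In committed nuclei, Mbp, Mag, Cnp and Cldn11 stood at 66.8% or more of their mature level, whereas Mog, Opalin, Ermn and Mal stood at 14.04% or less and Mobp lay between. Levels outside the lineage were not subtracted, and they differed by gene. Astrocyte-like nuclei stood at 22.8% for Mbp, 25.7% for Mobp and 26.0% for Cnp, and from 2.45% (Mog) to 9.30% (Mal) for the rest. The promoters of 2 genes from each side of the split in committed nuclei, Mag and Cnp against Mog and Mal, are shown to let their sequences be compared. The words in the windows of Cldn11, Opalin, Ermn and Mobp are given after them. Mbp was not read. Each is the 250 bases before the RefSeq transcript start in GRCm38.p6, on the strand of the gene. Capitals mark 2 words searched on both strands, the SOX core (ACAAAG or ACAATG) and the MYRF core (CTGGCAC or CTGGTAC).
Mag (chr7:30914923-30915172, minus strand): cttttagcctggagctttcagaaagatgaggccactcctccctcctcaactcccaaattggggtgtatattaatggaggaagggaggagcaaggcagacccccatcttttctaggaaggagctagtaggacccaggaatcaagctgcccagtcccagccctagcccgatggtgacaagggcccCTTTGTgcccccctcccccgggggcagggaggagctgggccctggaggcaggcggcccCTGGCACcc
Cnp (chr11:100574689-100574938, plus strand): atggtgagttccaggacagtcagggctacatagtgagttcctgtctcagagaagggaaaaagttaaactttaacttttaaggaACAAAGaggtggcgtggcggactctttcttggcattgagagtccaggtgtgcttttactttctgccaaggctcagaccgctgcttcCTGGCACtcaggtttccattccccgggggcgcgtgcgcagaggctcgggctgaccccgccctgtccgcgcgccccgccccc
Mog (chr17:37023399-37023648, minus strand): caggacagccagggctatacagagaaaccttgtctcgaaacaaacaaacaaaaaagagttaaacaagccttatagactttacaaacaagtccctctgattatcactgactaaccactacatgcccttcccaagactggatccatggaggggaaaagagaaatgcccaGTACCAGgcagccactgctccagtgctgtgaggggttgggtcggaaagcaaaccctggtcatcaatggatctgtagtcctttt
Mal (chr2:127656696-127656945, minus strand): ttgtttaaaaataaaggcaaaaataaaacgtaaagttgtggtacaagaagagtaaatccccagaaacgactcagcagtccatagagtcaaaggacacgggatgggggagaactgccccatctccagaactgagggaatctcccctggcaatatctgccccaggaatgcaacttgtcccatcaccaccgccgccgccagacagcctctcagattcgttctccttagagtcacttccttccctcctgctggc
The MYRF core began 9 bases before the start in Mag, 81 in Cnp and 83 in Mog, and the Mal window held neither word. The SOX core began 67 bases before the start in Mag and 167 in Cnp. Among the members not shown, Cldn11 held neither word, Opalin and Ermn each held 1 SOX core and Mobp held 6, so the words did not divide these 8 genes by their committed level. Mag has 3 promoter windows in the table, of which 2 overlap and share the same words and 1 held neither. Counted by gene, 3 of 8 held a MYRF core in any window and 5 of 8 a SOX core. Counted by window, which takes the Mag words 2 times, this was 4 and 6 of 10, against 5.92% and 25.3% of 32817 promoters of the same length. The E-box CAGCTG (13.01% of promoters) and the word TATAAA (12.4%) were in none of the 10. A word in these windows is a description of the letters. The 2 factors themselves, chosen for mention after their values were seen, were listed at every stage: Sox10 averaged 1.24 in OPC-like, 2.35 in committed and 1.15 in mature nuclei, and Myrf 0.0501, 0.718 and 0.539.

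Mag showed the step into the committed stage most plainly. Its mean value per nucleus in OPC-like nuclei was 0.221, 0.155 and 0.136 for the wild type, against 0, 0.165 and 0.178 for heterozygotes. In committed nuclei the same libraries gave 3.60, 4.46, 4.096, 4.96, 3.57 and 4.97, and in mature nuclei 5.16, 6.74, 6.38, 5.38, 5.07 and 6.55. Every library was far higher in committed than in OPC-like nuclei, and no committed value overlapped an OPC-like one. The committed level of Mag was 73.1% ± 10.2 (SD, n = 6 libraries) of its mature level, against 2.45% ± 1.43 in OPC-like nuclei. Mag was above 0 in 67.4% ± 8.86 of committed nuclei and 93.9% ± 3.33 of mature ones. These stages are defined by their clusters, so levels along them are given as a description, without a test.

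On average over libraries, Mbp was the member nearest to its mature level in committed nuclei. Wild-type libraries gave 21.5, 31.2 and 26.0 there, and heterozygous libraries 28.1, 26.3 and 32.6. In mature nuclei the same 6 gave 32.2, 37.0, 37.4, 28.9, 27.5 and 37.6. Each library was lower in committed than in mature nuclei, by a margin that was small in heterozygous replicates 1 and 2. As a share of the mature level of the same library, Mbp reached 83.4% ± 12.9 (SD, n = 6). Cldn11 reached 66.8% ± 12.6 and Cnp 67.1% ± 16.2. The ranges of Mbp, Mag, Cnp and Cldn11 over libraries overlapped, so their order is not resolved. In wild-type replicate 1, Mbp stood at 66.7% and Cnp at 92.7%.

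Mobp, the other basic protein, lagged behind Mbp. Committed nuclei gave 3.34, 4.27 and 4.32 (wild type) and 2.57, 1.77 and 4.27 (heterozygous), or 44.1% ± 9.52 (SD, n = 6) of the mature level. Heterozygous replicates 1 and 2 were the lowest, and replicate 3 was level with the wild type.

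Mog and Opalin, both surface proteins, were still low in committed nuclei. Mog averaged 0.156 ± 0.0616 in OPC-like, 0.886 ± 0.236 in committed and 6.26 ± 0.950 in mature nuclei (SD, n = 6), so its committed level was 14.04% ± 2.44 of the mature one. Opalin averaged 0.0705 ± 0.0429, 0.179 ± 0.0724 and 1.76 ± 0.216 at the same stages, with a committed level of 10.3% ± 4.37 of the mature one, or 19.3% with clusters at a resolution of 2.0. Mog was above 0 in 39.7% ± 6.86 of committed nuclei but in 94.9% ± 3.16 of mature ones.

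Mal and Ermn in committed nuclei were near their levels in OPC-like and astrocyte-like nuclei. Mal was 0.680, 0.546 and 0.628 in wild-type and 0.464, 0.404 and 0.969 in heterozygous committed nuclei, and 7.18, 8.61 and 8.29 against 7.35, 6.43 and 11.3 in mature ones. The committed values overlapped those of OPC-like nuclei, which ran from 0.429 to 0.952, and lay far below every mature library. Its committed level was 7.42% ± 1.35 (SD, n = 6) of the mature one, against 9.16% ± 2.37 in OPC-like and 9.30% ± 1.34 in astrocyte-like nuclei. Ermn stood at 9.26% ± 4.94 of its mature level in committed and 7.71% ± 2.53 in astrocyte-like nuclei.

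**Figure D1:**
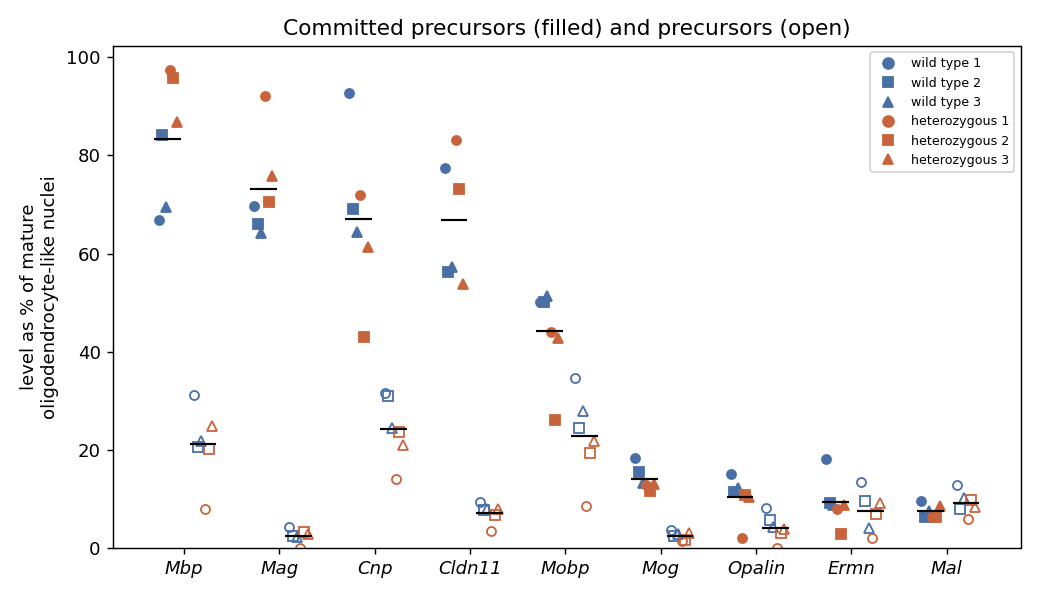
Level of each member in committed OPC-like nuclei (filled) and OPC-like nuclei (open) as percent of its level in mature nuclei of the same library, 1 point per library and a line at the mean of 6. Mbp, Mag, Cnp and Cldn11 averaged 66.8% to 83.4% in committed nuclei, and Mog, Opalin, Ermn and Mal 7.42% to 14.04%.

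OPC-like nuclei held the members at levels near those of astrocyte-like nuclei, which have a similar number of genes. Mbp was above 0 in 93.4% ± 9.15 of OPC-like nuclei (median of 2118 genes per nucleus), and in 96.8% ± 2.21 of astrocyte-like nuclei (median of 2030 genes). Against the mature level, OPC-like nuclei stood at 21.1% ± 7.68 for Mbp, 22.8% ± 8.75 for Mobp and 24.3% ± 6.54 for Cnp, and astrocyte-like nuclei at 22.8% ± 5.09, 25.7% ± 5.64 and 26.0% ± 5.39 (SD, n = 6). For all 9 members the mean OPC-like value lay within 1 SD of the astrocyte-like one. Mbp averaged 7.15 ± 2.86 in OPC-like and 2.08 ± 0.615 in D1 MSN-like nuclei, neurons with a median of 3390 genes. The source of the OPC-like values was not tested. Heterozygous replicate 1 had 28 OPC-like nuclei, and its Mag and Opalin values there were 0.

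**Figure D2:**
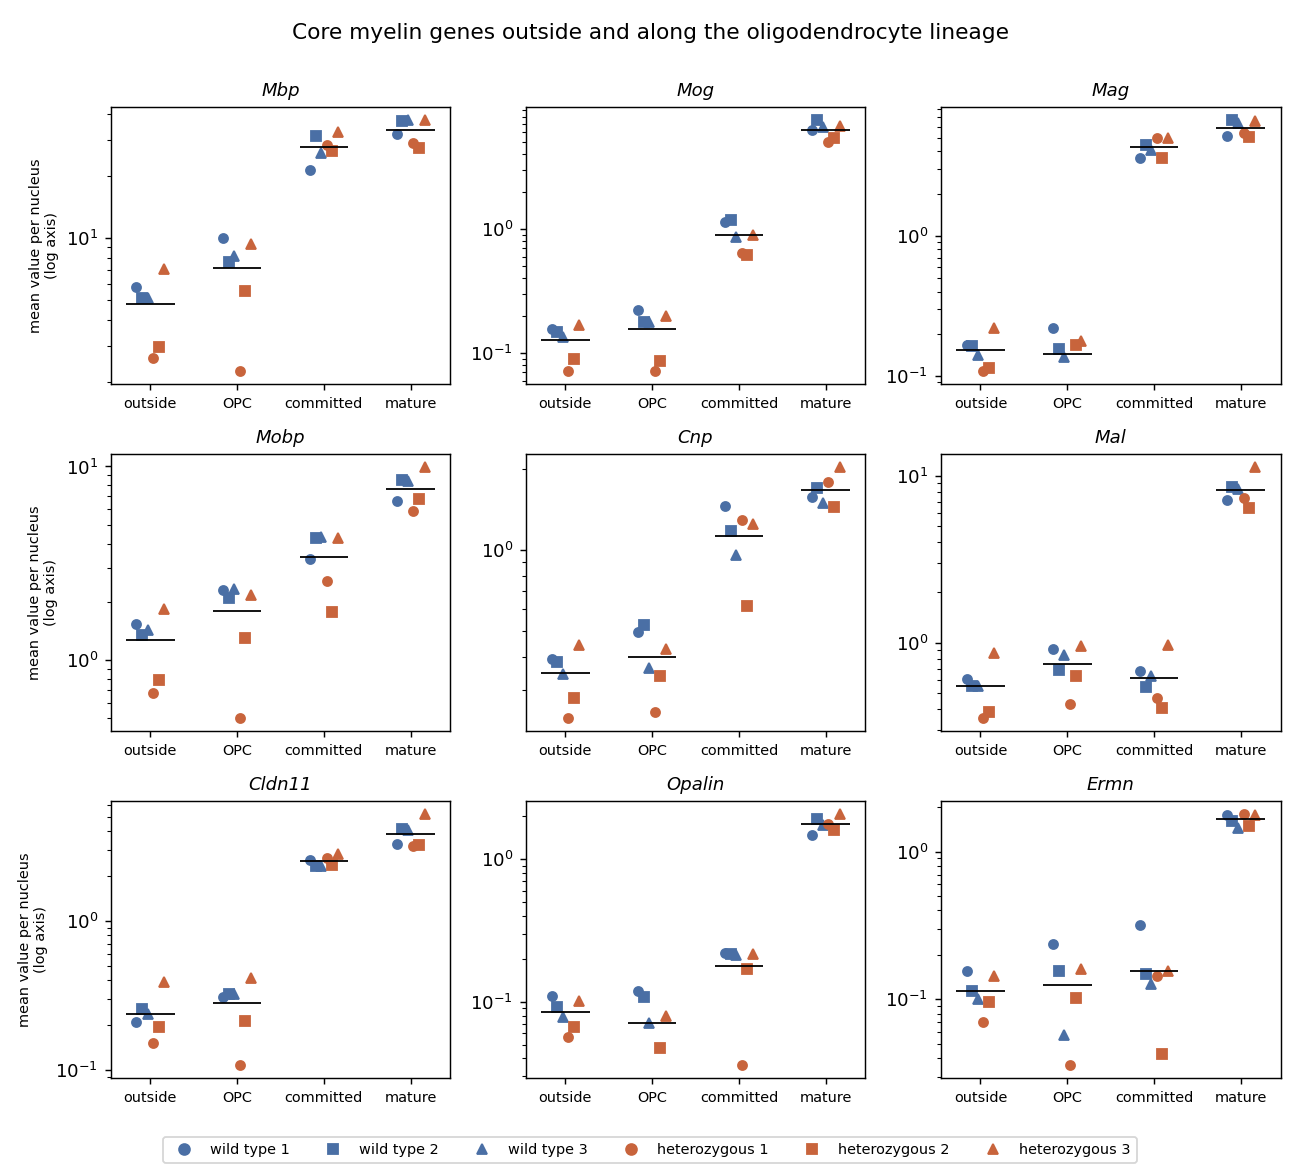
Mean value per nucleus of each member (log axis) in nuclei outside the lineage, OPC-like, committed OPC-like and mature oligodendrocyte-like nuclei, 1 point per library and a line at the mean of 6. Mag and Opalin in OPC-like nuclei of heterozygous replicate 1 were 0 and lie off the axis. Mag, Cldn11 and Mbp climb between OPC-like and committed nuclei, whereas Mal and Ermn climb between committed and mature ones.

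Mature nuclei fell into 3 clusters, of 4205, 3484 and 681 nuclei, and Opalin differed most between them. The clusters, numbered 2, 3 and 22, were made without the 9 genes. Opalin averaged 1.78, 2.07 and 1.90 in wild-type and 2.02, 1.65 and 2.30 in heterozygous nuclei of cluster 2. In cluster 3 it was 0.862, 0.967, 0.979, 0.974, 0.913 and 1.11, and in cluster 22 it was 4.61, 4.41, 4.06, 4.98, 4.64 and 4.98 in the same order of libraries. The 3 sets did not overlap. Opalin in cluster 3 was 0.498 ± 0.0309 times its level in cluster 2, and in cluster 22 it was 4.79 ± 0.462 times its level in cluster 3 (SD, n = 6).

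Mal was likewise lowest in cluster 3, at 0.696 ± 0.0406 times the cluster 2 level in cluster 3 and 2.496 ± 0.872 times the cluster 3 level in cluster 22. Mbp, Mog, Mag and Mobp went the other way between clusters 2 and 3: each was higher in cluster 3 in 6 of 6 libraries, by 1.06 ± 0.0298 times for Mbp and 1.14 ± 0.0472 times for Mog. Cnp and Cldn11 were near equal in clusters 2 and 3, at ratios of 0.993 ± 0.128 and 0.984 ± 0.0231. All 9 members were higher in cluster 22 than in cluster 3 in 6 of 6 libraries, from 1.19 ± 0.106 times for Ermn to the value for Opalin. Against cluster 2 all 9 were also higher in 6 of 6, led by Opalin at 2.38 ± 0.281 times, Mag at 2.23 ± 0.477 and Mobp at 1.93 ± 0.286, with Mal at 1.72 ± 0.528.

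Other genes differed between these clusters and are named, after their values were seen, only to describe them. Cluster 3 was high in Enpp6, a phosphodiesterase of newly made oligodendrocytes, at 1.70 ± 0.235 against 0.173 ± 0.0382 in cluster 2, and in Hapln2, a matrix protein of the node of Ranvier, at 1.86 ± 0.327 against 0.514 ± 0.0808. Cluster 3 was also above cluster 2 in Anln, at 3.81 ± 0.439 times, in Apod, at 2.03 ± 0.236 times, and in Klk6, at 0.176 ± 0.0443 against 0.00811 ± 0.00335. The order of the 3 clusters in maturity was not tested. Cluster 2 was high in Ptgds, prostaglandin D synthase, at 11.6 ± 3.12 against 3.74 ± 1.08 in cluster 3. Cluster 22 was low in Car2, carbonic anhydrase, and in Apod, at 0.416 ± 0.0412 and 0.256 ± 0.0311 times their levels in cluster 3. Nuclei of cluster 22 had a median of 2595 genes, against 1803 in cluster 2 and 1921 in cluster 3. They held less of the neuronal gene Snap25, 0.895 ± 0.320 against 1.92 ± 0.326 in cluster 3. The part of gene number in the higher member values of cluster 22 was not tested.

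**Figure D3:**
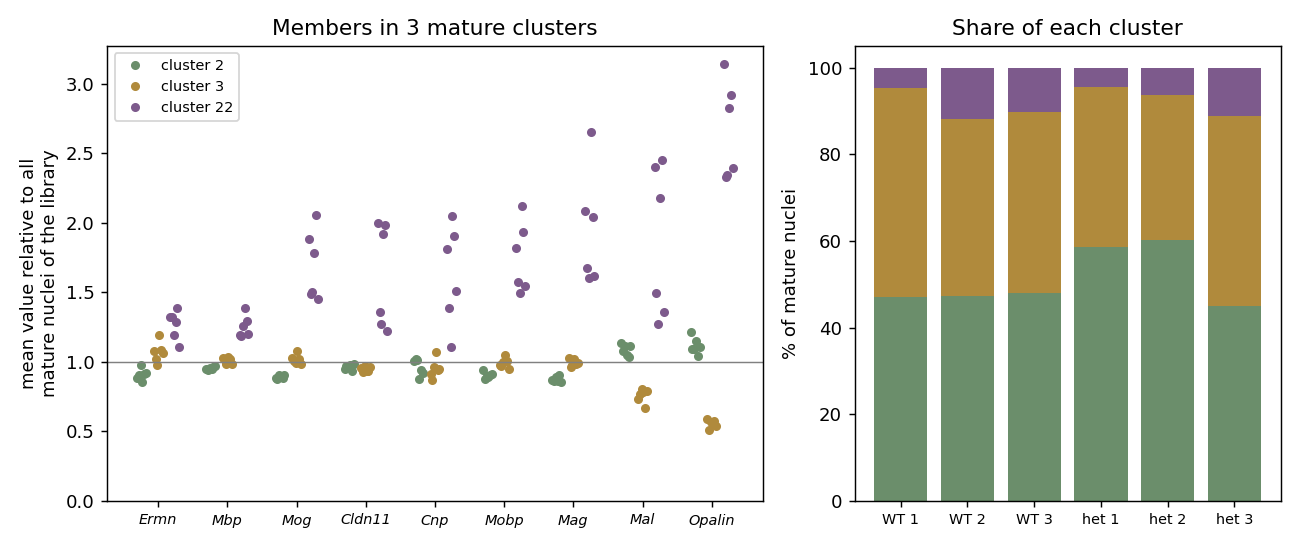
Left, mean value of each member in mature clusters 2, 3 and 22 relative to all mature nuclei of the library, 1 point per library. Right, share of mature nuclei in each cluster by library. Opalin and Mal are lowest in cluster 3, and all 9 members are highest in cluster 22.

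Across nuclei of 1 stage, the members varied together weakly once mature, whereas in the committed stage some pairs were strongly correlated and others not at all. Pearson correlations on log2(value + 1) were computed for each of the 36 pairs within each library, and are given as a description over nuclei that share library and depth correction. In mature nuclei the mean over libraries ran from 0.00840 for Mbp with Mal to 0.299 for Cnp with Mal, with a mean over pairs of 0.128, and 31 of 36 pairs were positive in every library. In committed nuclei the mean over pairs was 0.240 and 18 of 36 were positive in every library. The strongest were Mbp and Mag, which correlated at 0.740 (0.634 to 0.827 over libraries), Mag and Cldn11 at 0.685 and Mbp and Cldn11 at 0.629. Mal stood outside this group in committed nuclei, with a mean correlation of -0.0160 with the other 8. Its correlation with Cnp, the highest pair in mature nuclei, was -0.102. Mal was low in committed nuclei, at 7.42% of its mature level, against 9.16% in OPC-like and 9.30% in astrocyte-like nuclei. The part of this low level in its correlations was not tested. The libraries held 28 to 97 committed nuclei. Outside the lineage, where nuclei of many classes were pooled, the mean over pairs was 0.1025, near that of mature nuclei. There 36 of 36 pairs were positive in every library, and Mbp with Mobp averaged 0.552, against 0.189 in mature nuclei. The weak correlations of mature nuclei were therefore not particular to them.

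Outside the lineage, every member was listed in every library, at a level that differed by gene. Summed over nuclei, 90.7% ± 1.24 of the Mog value and 86.5% ± 2.16 of the Mag value lay in mature nuclei (SD, n = 6). For Mbp this was 59.0% ± 4.33, for Mobp 56.1% ± 3.34 and for Cnp 49.7% ± 3.42, with 37.2% ± 3.47, 41.2% ± 3.08 and 47.4% ± 3.02 in nuclei outside the lineage. Per nucleus, the level outside was 20.9% ± 4.16 of the mature level for Cnp, 16.2% ± 4.33 for Mobp and 13.98% ± 3.85 for Mbp. It was 6.87% ± 1.70 for Ermn, 6.64% ± 1.26 for Mal, 6.08% ± 0.872 for Cldn11, 4.88% ± 1.43 for Opalin, 2.58% ± 0.562 for Mag and 2.01% ± 0.430 for Mog. The 9 members were therefore not present outside in the proportions of mature nuclei. The Cnp gene overlaps Dnajc7 and the Ermn gene overlaps Galnt5, each on the opposite strand, as the Mog gene does Gm22388, a noncoding RNA. Mobp overlaps the noncoding Gm38642 on the same strand, and whether counting used the strand is not given in the sources used here.

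The level outside followed how few genes a class had. The summed value of the 9 members was highest in mural-like, microglia-like and endothelial-like nuclei, at 19.6 ± 7.63, 17.6 ± 4.85 and 17.9 ± 5.71, whose nuclei had medians of 1752 to 1902 genes. It was 11.8 ± 3.45 in astrocyte-like nuclei, 3.76 ± 1.02 in D1 MSN-like nuclei with a median of 3390 genes, and 2.83 ± 0.967 in glutamatergic neuron-like nuclei. MSNs are the medium spiny projection neurons of the striatum, and D1 and D2 name their dopamine receptor. Over 14 named classes outside the lineage, each with nuclei in every library, the sum and the median number of genes correlated at r = -0.94 and rho = -0.93, a description over classes that share libraries. An unnamed cluster of 1323 nuclei with Pmch among its leading genes, with a median of 1721 genes, held a sum of 30.2 ± 8.73.

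The mix of members also differed between classes. The ratio of 1 member to the other 8 was set against that in all nuclei outside the lineage. For Mbp it was low in glutamatergic neuron-like and D1 MSN-like nuclei, at 0.629 ± 0.0555 and 0.751 ± 0.0297 times. It was above 1 in 6 of 6 libraries for 7 of 9 members in the former and 6 of 9 in the latter. Not all neurons shared this: in eccentric MSN-like and cholinergic interneuron-like nuclei the Mbp ratio lay on both sides of 1 between libraries. Since Mbp makes up most of the sum, a low Mbp raises the ratio of every other member. The ratio of Cnp was 1.75 ± 0.0838 times for D1 MSN-like nuclei, and GABAergic interneuron-like nuclei (1.54 ± 0.206) and those of the D2 class (1.64 ± 0.0938) were close to it. Among classes with few genes, Mal and Cldn11 are given as examples. Mal in endothelial-like nuclei was 2.15, 1.74 and 1.60 in wild-type and 1.57, 1.18 and 2.77 in heterozygous libraries, or 22.3% of its mature level, its highest among the classes outside. The ratio of Mal to the other 8 members there was 1.50 ± 0.290 times that of all nuclei outside the lineage, above 1 in 6 of 6 libraries (SD, n = 6). In microglia-like nuclei, of similar gene number, it was 0.764 ± 0.0298 times, above 1 in 0 of 6. Cldn11, which other barrier-forming cells also make, stood at 16.4% of its mature level in the 229 fibroblast-like nuclei, and its ratio to the other members was 1.77 ± 0.454 times that of all nuclei outside, above 1 in 6 of 6 libraries. All these cases were singled out after their values were seen.

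**Figure D4:**
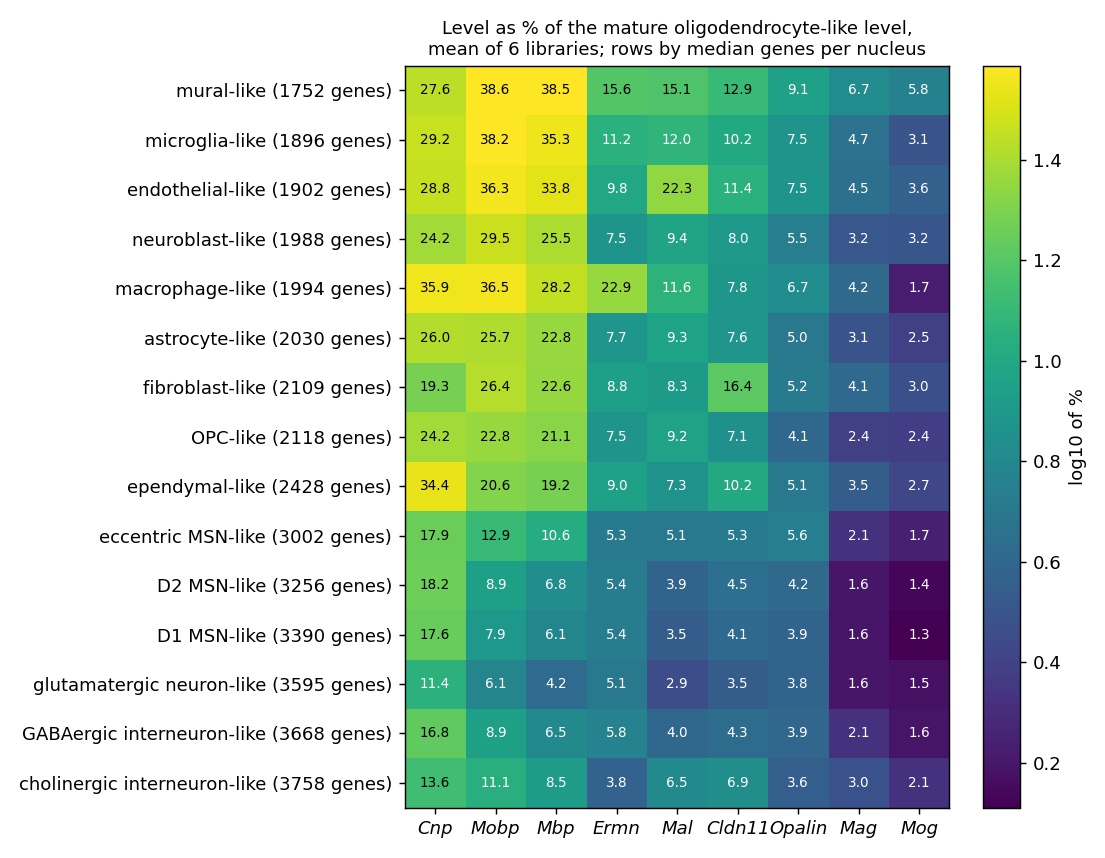
Level of each member as percent of its mature oligodendrocyte-like level, mean of 6 libraries, in 14 classes outside the lineage and in OPC-like nuclei, ordered by median genes per nucleus and coloured on a log10 scale. Mal in endothelial-like nuclei (22.3%) and Cldn11 in fibroblast-like nuclei (16.4%) are the highest values of their gene among the 14 classes.

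Genes whose levels across classes were most like the mean of the members included Qdpr, Tspan2 and Gsn. Only classes that held 20 or more nuclei of each library entered, 14 in all, mature oligodendrocyte-like ones included. Among 11246 genes, those with a high correlation with the members' mean on the log2 scale included Qdpr, Tspan2, Gsn, Car14, Tmem88b, Ptgds, Gpr37, Itch and Cdc37l1, at r = 0.951 down to 0.915, a description over classes that share libraries. Of the members, Mog was most like the other 8, at 0.972, and Mal least, at 0.874. Tspan2, a tetraspanin, averaged 0.334 in OPC-like, 1.60 in committed and 3.50 in mature nuclei.

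By genotype, taken over all nuclei, all 9 members had lower means in the heterozygous libraries and none passed the test. Wild-type libraries averaged 12.4, 10.9 and 10.98 for Mbp, and heterozygous libraries 5.87, 7.10 and 12.8. For Mog the wild type gave 1.66, 1.43 and 1.25, and heterozygotes 0.672, 0.947 and 1.34. Heterozygous replicates 1 and 2 lay below every wild-type library for 9 of 9 members, whereas replicate 3 lay above every wild-type library for 6 and below the lowest for none, so the groups overlapped for all 9. This order of libraries was counted for the members only, so no share of all genes stands beside it. The median log2 change of the members was -0.29, from -0.59 for Mog (SE 0.24, limma, Benjamini-Hochberg adjusted p = 0.492) to -0.22 for Cnp. Without heterozygous replicate 3 these were -0.84 for Mog and -0.45 for Cnp, and without heterozygous replicate 1 they were -0.35 and -0.069. Of all 14400 genes tested, 0 (0%) passed an adjusted p under 0.05, 9.92% had an unadjusted p under 0.05, and 30.7% were lower in the heterozygous libraries. Groups that did not overlap were found for 4.41% of genes lower and 14.9% higher in heterozygous libraries, and for 0 of 9 members; in each population below it was likewise 0 members.

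The share of mature nuclei followed these values only in part. Of kept nuclei, 24.6%, 17.05% and 17.2% were mature in the wild type, against 12.1%, 16.2% and 17.5% in heterozygotes. Wild-type replicate 1 was the highest and heterozygous replicate 1 the lowest, and the other 4 lay together, although their summed member values over all nuclei ran from 13.9 in heterozygous replicate 2 to 24.4 in heterozygous replicate 3. On average these came to 19.6% ± 4.33 and 15.3% ± 2.84 (SD, n = 3 libraries a group; two-sided exact permutation p = 0.3, adjusted over 3 classes 0.45). For committed nuclei they were 0.989% ± 0.289 and 0.682% ± 0.388 (exact permutation p = 0.2, adjusted 0.45) and for OPC-like nuclei 2.22% ± 0.886 and 1.75% ± 1.51 (exact permutation p = 0.6, adjusted 0.6). The difference in the mature share, -4.36 percentage points, was -1.86 without wild-type replicate 1 and -2.76 without heterozygous replicate 1. That in the committed share, -0.307, was -0.147 without heterozygous replicate 1 and -0.523 without heterozygous replicate 3. That in the OPC-like share ran from -1.27 to 0.225 with 1 library left out, so its direction turned. With 3 against 3 libraries this test cannot give a p below 0.1. Shares of other classes also differed between libraries. As an example, glutamatergic neuron-like nuclei made up 8.84%, 3.10% and 12.7% of kept nuclei in the wild type and 18.6%, 4.01% and 8.62% in heterozygotes. The part of this mix in the shares of the lineage was not tested. A value over all nuclei combines the number of mature nuclei with the level per nucleus, which are given separately here. Per mature nucleus the summed value was 65.5, 77.8 and 75.8 in the wild type, against 61.0, 58.9 and 83.3 in heterozygotes. Heterozygous replicates 2 and 3, whose mature shares lay near those of wild-type replicates 2 and 3, gave the lowest and the highest sum. Averaged by genotype, this sum came to 73.02 ± 6.605 for wild-type and 67.73 ± 13.56 for heterozygous libraries (two-sided exact permutation p = 0.7).

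Within mature nuclei the members' estimates lay on both sides of 0 and none passed the test. Mog was 6.22, 7.59 and 6.57 in wild-type and 5.02, 5.36 and 6.79 in heterozygous nuclei, with replicates 1 and 2 of the latter below every wild-type library and replicate 3 among them. Its log2 change was -0.26 (SE 0.13, limma adjusted p = 0.991), the largest of the 9, or -0.38 without heterozygous replicate 3 and -0.17 without heterozygous replicate 1. The estimate was -0.19 (SE 0.13) for Mbp, -0.10 (SE 0.13) for Mag and 0.13 (SE 0.13) for Cnp. Without heterozygous replicate 3 these were -0.33, -0.21 and 0.019, and without heterozygous replicate 2 they were -0.11, -0.028 and 0.27. In all, 5 members were lower and 4 higher, with a median of -0.016. Of 11370 genes, 0 (0%) passed, 5.41% had an unadjusted p under 0.05 and 43.8% were lower, and groups did not overlap for 4.13% lower and 6.06% higher. Cluster 22, the one with the most of each member, held 4.69%, 11.9% and 10.2% of mature nuclei in the wild type and 4.39%, 6.22% and 11.2% in heterozygotes. With the 3 clusters weighted equally in every library, an alternative chosen after seeing the data, the estimate was -0.19 for Mog, -0.15 for Mbp, 0.014 for Mag and 0.28 for Cnp, and none passed. The signs of Cldn11, Mal, Mobp, Opalin, Mag and Ermn turned under at least 1 alternative.

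In committed nuclei none passed either among the 7 members that passed the filter on low values, which Opalin and Ermn did not. Mog was 1.14, 1.17 and 0.862 in wild-type and 0.643, 0.617 and 0.887 in heterozygous nuclei, overlapping through heterozygous replicate 3, with a log2 change of -0.56 (SE 0.22, limma adjusted p = 0.711). The estimate was -0.55 (SE 0.26) for Mobp and 0.16 (SE 0.15) for Mbp, and 4 of the 7 were lower. With 1 library left out, Mobp ran from -0.89 (without heterozygous replicate 3) to -0.25 (without heterozygous replicate 2) and Mbp from 0.023 (without wild-type replicate 1) to 0.29 (without wild-type replicate 2). Of 2661 genes, 0 (0%) passed, 6.58% had an unadjusted p under 0.05 and 51% were lower, and groups did not overlap for 6.05% lower and 5.6% higher. The genotype change did not pass a test of difference between mature and committed nuclei for any of the 7 members, nor for any of 2628 genes (0%; 4.22% with an unadjusted p under 0.05). As mature minus committed change in log2, it ran from -0.35 (SE 0.19, limma adjusted p = 0.900) for Mbp to 0.46 (SE 0.33) for Mobp.

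In OPC-like nuclei all 5 tested members were lower, from -0.98 (SE 0.41) for Mobp to -0.34 for Mal, and none passed (limma adjusted p = 0.902 at the least). Of 5133 genes there, 0 (0%) passed, 4.13% had an unadjusted p under 0.05 and 42.9% were lower, and groups did not overlap for 3.12% lower and 6.62% higher. Heterozygous replicate 1 contributed 28 nuclei to this comparison. Without it the estimate was -0.40 for Mobp and -0.063 for Mal, and without heterozygous replicate 3 it was -1.45 and -0.63. The direction of Mal turned when no doublets were left out.

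Outside the lineage the members followed the libraries in the way they did over all nuclei. Summed, the 9 came to 9.08, 8.15 and 8.12 in the wild type, against 4.33, 4.97 and 11.2 in heterozygotes. Heterozygous replicates 1 and 2 were the lowest and replicate 3 the highest of the 6. On average this was 8.45 ± 0.543 and 6.85 ± 3.82 (SD, n = 3 each; two-sided exact permutation p = 0.4). The difference, -1.60, was -3.80 without heterozygous replicate 3, -0.34 without replicate 1 and -0.67 without replicate 2. All 9 members were lower by mean log2 change, with a median of -0.26, and none passed the test. With 1 library left out, the change turned for Cldn11, Mag and Mal, to 0.23, 0.021 and 0.028 at the most. Of 14589 genes, 0 (0%) passed, 8.08% had an unadjusted p under 0.05 and 34.2% were lower, and groups did not overlap for 5.48% lower and 10.8% higher. Of 11 marker genes of neurons, astrocytes and microglia, 7 were lower outside the lineage, where their own cells lie, with a median of -0.185, and 4 did so without overlap. In mature nuclei 8 of 11 were lower with a median of -0.066 and 0 without overlap. In OPC-like nuclei it was 6 of 9, with a median of -0.16 and 1 without overlap, and in committed nuclei 4 of 4, with a median of -0.076 and 0 without overlap. These markers were not absent from mature nuclei: Snap25 averaged 1.96 there against 3.88 outside the lineage, and Csf1r 0.0517 against 0.375. Their part in the members' values was not tested. Mobp lies on chromosome 9 (chr9:120149742-120181488), 11.3 Mb from Celsr3. Its log2 estimate outside the lineage was -0.52 (SE 0.34, limma adjusted p = 0.673), or -0.96 without heterozygous replicate 3 and -0.25 without replicate 1. The estimate for Mbp outside the lineage was similar, at -0.49 (SE 0.35). In mature nuclei, where Mobp was highest, its estimate was -0.090 (SE 0.19, limma adjusted p = 0.996). The part of the position of Mobp in these values was not tested.

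**Figure D5:**
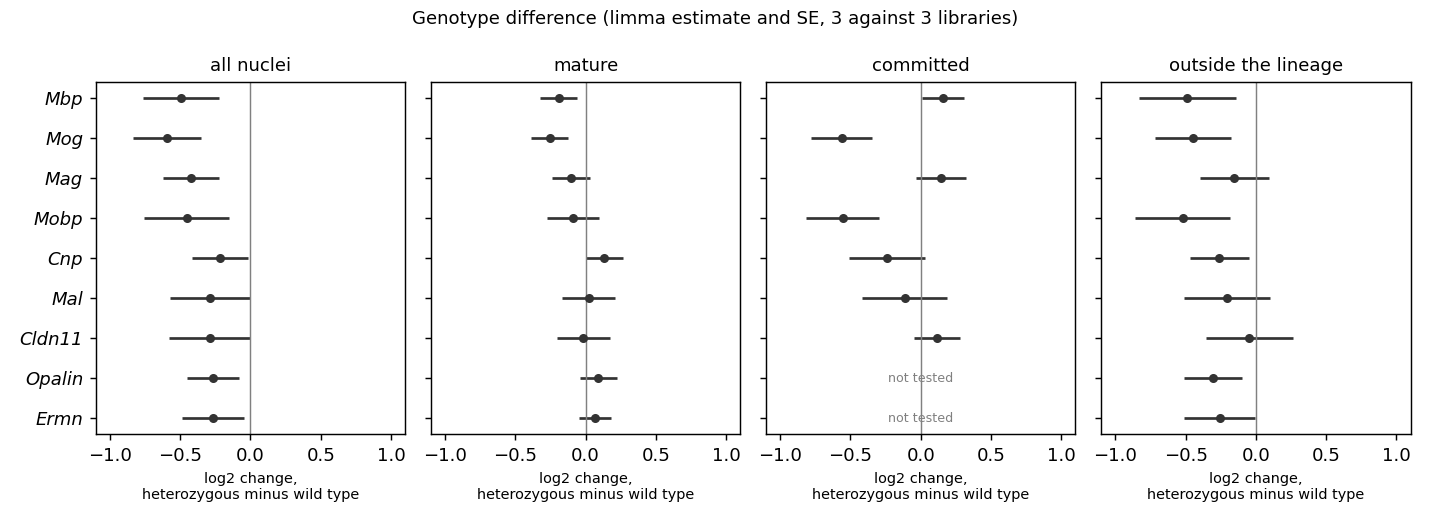
Log2 change of each member, heterozygous minus wild type, as limma estimate and SE from 3 against 3 libraries, in all, mature, committed and outside nuclei. All 9 estimates lie below 0 in all nuclei and outside the lineage, and 5 of 9 in mature nuclei, and none passed the test.

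Genes that work with the members gave no call in these 5 populations either. In mature nuclei, of other myelin and paranodal proteins 25 of 27 were tested, of myelin lipid synthesis genes 27 of 27, of oligodendrocyte transcription factors 22 of 24 and of receptors and signals 30 of 35, and 0 rose and 0 fell. Of these, 15, 21, 8 and 14 were lower in the heterozygous libraries, with median log2 changes of -0.016, -0.084, 0.027 and 0.0051. Of all genes tested there, 43.8% were lower, with a median of 0.025. Over all nuclei 23 of 25 other myelin proteins were lower, with a median of -0.27, where 30.7% of all genes tested were lower (median 0.070). In OPC-like nuclei 11 of 15 were lower (-0.33), beside 42.9% of all genes (0.045). Outside the lineage it was 18 of 24 (-0.088), beside 34.2% of all genes (0.053). In committed nuclei it was 5 of 13 (0.045), beside 51% of all genes (-0.0054). Again 0 were called. Within mature nuclei, the smallest unadjusted p values of these lists belonged to Akt1, a kinase of the growth factor pathway, Olig1, a lineage transcription factor, and Sox8, a relative of Sox10. Akt1 averaged 0.0614 in wild-type and 0.0810 in heterozygous nuclei, Olig1 0.411 and 0.545, and Sox8 0.275 and 0.353, and none passed (limma adjusted p of 0.843, 0.907 and 0.909).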

How the data were processed

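Single-nucleus RNA libraries from striatum (10x 3′ chemistry, per the labels' protocols) of mice, 3 wild type and 3 Celsr3 heterozygous libraries, were analysed. Per the submitters' processing notes, Cell Ranger, Seurat 4.1 and the mm10 (GRCm38) build were used. The values deposited by the authors are named a score here, read as UMIs corrected for depth and rounded, from the table itself: totals per nucleus, 4523 to 10638, varied by only 10.7% (CV), and in 10.0% of nuclei at least 10 rare genes stood at 2 or 3 and none at 1. Depth is therefore unknown, no count model, interval or floor was used, and since the labels name no animals the p-values measure only the spread between these libraries, which may be technical.

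Nuclei were clustered on 2000 variable genes without the 9 members (30 components, 15 neighbours, Leiden resolution 1.0; scanpy 1.11.5, igraph 0.11.9, scikit-learn 1.9.0, Python 3.11.15), and clusters were named from marker lists. Scrublet, run on the corrected values with an expected doublet rate of 0.06, called 0.317% to 0.824% of nuclei, and these calls were not used. Whether doublets had been removed before deposit is not given in the sources used here. The 818 nuclei (1.68%) with a score above 0.25 or in clusters with over 40% such nuclei were left out. Means per nucleus and library were tested as log2(mean + 0.01), which understates changes of low genes, with limma 3.58.1 (trend; R 4.3.3), filtered at a mean of 0.02 and an average sum of 30 per library, with Benjamini-Hochberg adjustment over all genes of a population. The test was checked on simulated data. Every adjusted p of a gene comes from limma. The 9 members were always named, with listed genes past the threshold or else the 3 of smallest p in mature nuclei, and the 10 genes most like the members, of which 1 is not reported here. The members, lists, naming thresholds and doublet limits were chosen with earlier results of these data known. Promoter sequences are RefSeq's (GRCm38.p6), read for 8 of the 9 members. The labels do not say whether replicate numbers pair the libraries, and the main test did not use them as a block. Alternatives varied the pseudocount, filter, scaling, weights, block, clustering, doublets and libraries.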

Additional observations from a re-analysis of the deposited data

How the results depend on the processing

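No member passed the test under any alternative, and of 516 member values under alternatives 491 kept their direction and 25 turned. The log2 change in mature nuclei turned for Mal with size-factor scaling (-0.0013) and with array weights (-0.15), for Opalin with array weights (-0.013), and, with the 3 mature clusters weighted equally (chosen after seeing the data), for Cldn11 (0.049), Mag (0.014) and Mobp (0.0071). Mal in OPC-like nuclei turned with no doublets left out (0.14). With 1 library left out, changes in mature nuclei ranged from -0.25 to 0.11 for Cldn11, -0.0039 to 0.15 for Ermn, -0.22 to 0.19 for Mal, -0.31 to 0.073 for Mobp and -0.014 to 0.18 for Opalin. Likewise they ranged in committed nuclei from -0.42 to 0.10 for Cnp and -0.50 to 0.12 for Mal, and outside from -0.43 to 0.23 for Cldn11, -0.46 to 0.021 for Mag and -0.61 to 0.028 for Mal. The difference in the OPC-like share, in percentage points, ranged from -1.27 to 0.225 and turned without wild-type replicate 2 (0.0411) or heterozygous replicate 1 (0.225). The count of genes called ranged with 1 library left out from 0 to 3 in mature nuclei (3 without heterozygous replicate 3), 0 to 8 in committed nuclei (8 without heterozygous replicate 3) and 0 to 3 for the difference between them (3 without heterozygous replicate 3). Array weights called 8 genes in mature nuclei and 1 outside, and no filter called 1 in committed nuclei; the cause was not tested. At a resolution of 2.0, committed nuclei stood at 87.2% (Mag), 16.8% (Mog) and 19.3% (Opalin) of the mature level. Without the unnamed cluster that has Pmch among its leading genes, also chosen after seeing the data, the members outside summed to 7.43 ± 0.51 (wild type) and 6.16 ± 3.28 (heterozygous). Same-numbered libraries correlated in their deviations at 0.271, -0.101 and 0.225 in mature nuclei, and 2 of the 3 wild-type libraries correlated best with their own number. With the replicate number as a block, 0 genes passed in each of the 5 populations, so the block changed no call.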
